A study of Homo sapiens with 12 samples.

Results

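EGR1, EGR2, EGR3, FOS, FOSB, FOSL1, JUN, JUNB, IER2 and IER3 are immediate early genes, and their RNA levels were followed in melanoma cells treated with etoposide or with etoposide and rapamycin. The 10 genes were chosen by name from 58307 rows of the count table that name a gene, and each name matched exactly. Cells of A375 and SK-MEL-28, both established human melanoma lines, received Etoposide or Etoposide + Rapamycin, and each of the 4 groups had 3 libraries. All 12 libraries therefore share etoposide, which poisons topoisomerase II and leaves DNA breaks, and the groups of a cell line differ by rapamycin, an inhibitor of the kinase complex mTORC1. Untreated cells and cells given rapamycin alone were not analysed here, and the dose and duration of the treatments of the sequenced cells are not given in the sources used here. The comparison of both treatments was made to learn how an inducer of autophagy changes the response of melanoma cells to etoposide. RNA was enriched for polyA, and the study describes the 3 libraries of a group as biological replicates, though how the cultures were separated is not given in the sources used here.

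Immediate early genes are transcribed within minutes of a stimulus without the need for new protein, because the factors that drive them are already bound or are activated by phosphorylation. Growth factor and stress signals reach them through the MAP kinases ERK, JNK and p38, which act on ternary complex factors bound with SRF at CArG boxes and on CREB and ATF proteins at sites with the core TGACG. FOS and JUN family proteins pair through leucine zippers to form AP-1, which binds TGANTCA, whereas EGR proteins are zinc finger factors that bind a GC-rich element with the core GCGNGGGCG. In melanoma, where ERK signalling is often driven by mutant BRAF, FOSL1 and JUN are known as AP-1 proteins of dedifferentiated and drug-tolerant cells.

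The depth was 28189501 to 32499337 counts per library, more in each library than the clean reads the study lists for it, so a count is not 1 read, and levels are given as CPM after TMM scaling over all 12 libraries. The melanocyte lineage genes SOX10, S100B and S100A1 were expressed in both lines. PMEL, MLANA, TYR, DCT and TYRP1, which melanocytes use to make pigment, lay at or under 2.99 CPM in every library, and TYR was at 0 in 8 of 12. SK-MEL-28 is generally known as a pigment gene expressing line, so these markers go against that description, and SK-MEL-28 stands below for the libraries labelled so. Of the markers of other cell types, KRT5, KRT1, COL3A1, PTPRC and CD3E lay at or under 0.628 CPM in every library, whereas KRT10 had 41.4 to 62.4 CPM, CD68 19.6 to 52.2 CPM, PDGFRB 11.1 to 21.2 CPM, LUM 3.93 to 28.9 CPM and KRT14 4.84 to 9.98 CPM.

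The promoters show which of these control elements each gene carries close to its start. RefSeq (GRCh38.p14) gave a promoter for 7 of the 10 genes, and EGR3, FOSL1 and IER3 had no match. The windows below run from 140 to 21 bases before the start, which leaves out exons, and are printed 5′ to 3′ along the gene's strand. Capitals mark CArG boxes, the core TGACG on either strand and the related 8-letter element TGACNTCA, which overlaps TGACG where N is G. EGR2 has 3 starts in the table, and the one shown is the nearest to the coding part of the gene. These 6 windows are shown because they belong to the EGR, FOS and JUN genes whose levels differ in direction or size in the comparisons that follow.
EGR1 promoter, chr5:138465339-138465458, plus strand: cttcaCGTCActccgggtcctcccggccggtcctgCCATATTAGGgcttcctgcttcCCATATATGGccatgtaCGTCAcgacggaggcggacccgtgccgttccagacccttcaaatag
EGR2 promoter, chr10:62816387-62816506, minus strand: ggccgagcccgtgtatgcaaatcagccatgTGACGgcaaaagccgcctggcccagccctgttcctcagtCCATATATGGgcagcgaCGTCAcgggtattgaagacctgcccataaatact
FOS promoter, chr14:75278688-75278807, plus strand: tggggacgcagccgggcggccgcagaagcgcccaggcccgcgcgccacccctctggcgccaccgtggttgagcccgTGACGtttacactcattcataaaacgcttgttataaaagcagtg
FOSB promoter, chr19:45467856-45467975, plus strand: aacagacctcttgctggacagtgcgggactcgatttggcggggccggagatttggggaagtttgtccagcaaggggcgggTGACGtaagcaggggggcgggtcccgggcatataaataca
JUN promoter, chr1:58784068-58784187, minus strand: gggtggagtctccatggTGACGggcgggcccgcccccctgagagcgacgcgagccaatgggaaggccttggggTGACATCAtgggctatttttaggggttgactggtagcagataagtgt
JUNB promoter, chr19:12791346-12791465, plus strand: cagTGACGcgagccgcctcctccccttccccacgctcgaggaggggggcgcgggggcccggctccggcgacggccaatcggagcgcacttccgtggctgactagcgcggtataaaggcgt

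In windows of 250 bases before the start, both strands searched, a CArG box was found in 1.16% of the 35116 promoters in the table, and among these genes it was found in EGR1 and in the EGR2 start shown. EGR1 held 2 CArG boxes, at 105 to 96 and at 83 to 74 bases before the start. EGR2 held the same 10 letters as the nearer of these, at 71 to 62 bases before the start shown. The other EGR2 starts held no match to any element searched here, and which start the cells used was not measured. The core TGACG stood in 21.2% of all promoters and in at least 1 start of each of the 7 genes, with 2 copies in EGR1 and 2 in the EGR2 start shown. In FOS and FOSB it lay at 64 to 60 and at 60 to 56 bases before the start. The element TGACNTCA, found in 6.87% of all promoters, occurred only in JUN among the 7 genes, as TGACATCA at 67 to 60 bases before the start. CCGGAA, the core bound by ternary complex factors and other ETS proteins, stood in 14.5% of promoters and in those of FOSB and IER2, GCGNGGGCG in 8.41% and in that of EGR1, and TGANTCA in 6.57% and in none of the 7. These are matches of letters in windows of 250 bases, and sequence further upstream was not searched. A gene without a match here may therefore carry the element, or further copies of it, beyond the window. Binding was not measured.

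Of the EGR genes, EGR1 and EGR2 rose with rapamycin in both lines. EGR1 (ENSG00000120738.8, chr5:138465479-138469303), the best known growth factor responsive gene of the family, had 48.1, 37.6 and 45.2 CPM in the A375 libraries with etoposide and 64.1, 54.7 and 60.2 CPM in those with etoposide + rapamycin. SK-MEL-28 had 30.8, 29.4 and 37.3 CPM with etoposide and 64.2, 58.3 and 52.4 CPM with rapamycin added. In either line every library with rapamycin lay above every library without it, though in such bulk RNA more expressing cells and more RNA per cell cannot be told apart. The log2 fold change, positive where higher with rapamycin, was 0.45 in A375 (SE 0.0852, adjusted p = 0.00194 in edgeR, whose quasi-likelihood test gave all p values below). In SK-MEL-28 it was 0.84 (SE 0.0944, edgeR adjusted p = 5.06e-05).

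EGR2 (ENSG00000122877.18, chr10:62811996-62819167), a factor known for its role in myelination and in lymphocytes, rose most of the 10 genes in both lines. It had 12.9, 11.2 and 11.4 CPM in A375 with etoposide and 33.6, 28.8 and 30.0 CPM with etoposide + rapamycin. In SK-MEL-28 it was much lower, at 2.72, 1.85 and 2.36 CPM with etoposide and 6.49, 5.25 and 5.66 CPM with rapamycin added. The groups did not overlap in either line, and the ratio of their means was 2.61 in A375, against 2.51 in SK-MEL-28. The log2 fold change was 1.38 in A375 (SE 0.0941, edgeR adjusted p = 1.03e-06), against 1.32 in SK-MEL-28 (SE 0.18, edgeR adjusted p = 0.000243). The SK-MEL-28 value rests on 56 to 201 counts per library. EGR2 overlaps an unnamed lncRNA on its own strand in the annotation, and how reads in the overlap were divided is not given in the sources used here.

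EGR3 (ENSG00000179388.9), which binds the same DNA element as EGR1, did not pass the test in A375. It had 38.7, 41.5 and 35.4 CPM with etoposide and 37.7, 35.8 and 38.3 CPM with rapamycin added, and these ranges overlap, with a log2 fold change of -0.05 (SE 0.0709, edgeR adjusted p = 0.644). In SK-MEL-28 the libraries with etoposide had 9.75, 12.98 and 13.2 CPM and those with etoposide + rapamycin 16.9, 16.3 and 15.6 CPM, without overlap. The log2 fold change there was 0.44 (SE 0.119, edgeR adjusted p = 0.0213). It fell to 0.31 (edgeR adjusted p = 0.0657) when SK-MEL-28 Etoposide replicate 1, the lowest library, was left out, and the adjusted p was also above 0.05 without SK-MEL-28 Etoposide + Rapamycin replicate 1 (0.06) or replicate 2 (0.0591) and with a filter that kept every gene with a count (0.054).

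As a share of the summed level of EGR1, EGR2, EGR3 and EGR4 (CPM per kb of exon), EGR2 went from 12.6% ± 0.29 to 23.4% ± 0.751 (SD, n = 3) in A375 and from 4.61% ± 0.99 to 6.6% ± 0.512 in SK-MEL-28. EGR1 held 55.0% and 53.5% of this sum in A375 without and with rapamycin, and 76.0% and 78.2% in SK-MEL-28. The sum itself was 25.2 ± 1.58 and 35.5 ± 2.25 CPM per kb in A375, and 13.6 ± 1.59 and 23.7 ± 2.1 CPM per kb in SK-MEL-28. EGR4 held 1.49% to 2.23% in the 4 groups. Such shares depend on the annotated exon length taken for each gene.

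**Figure D1:**
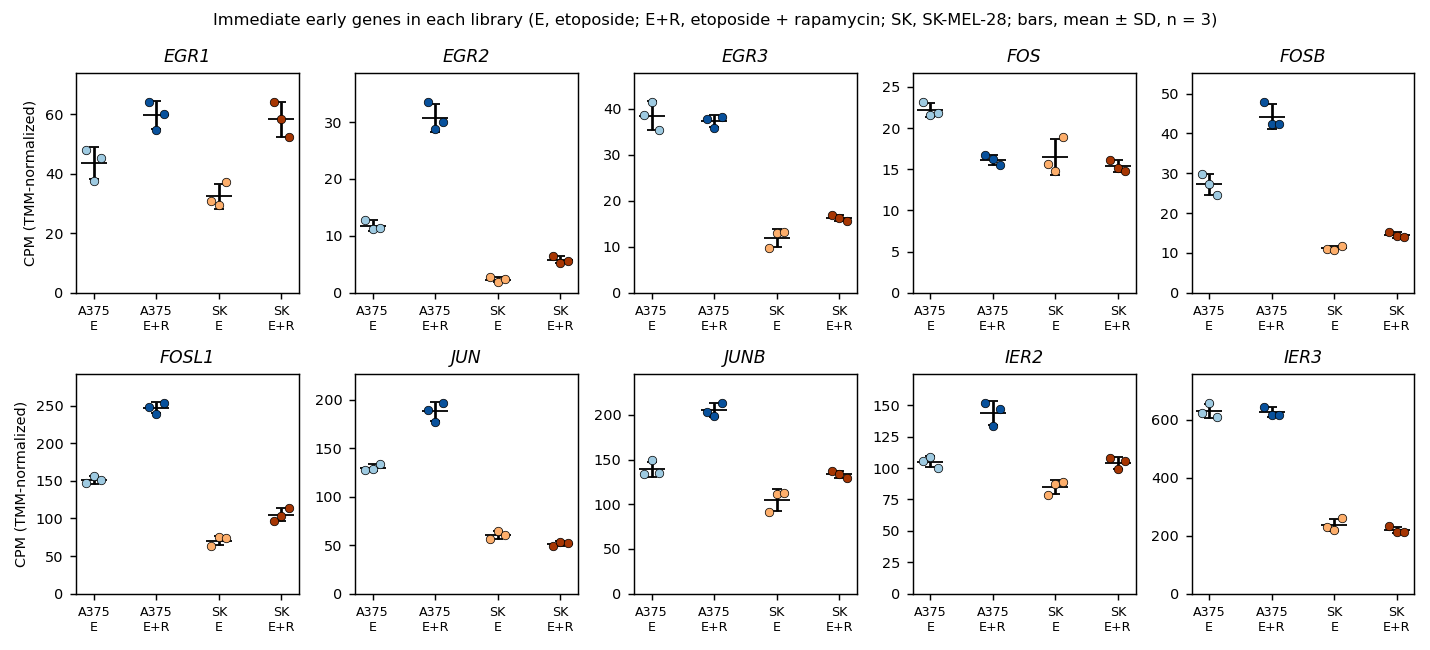
Level of each of the 10 genes in CPM, on a linear axis from 0, in the 12 libraries by group (E, etoposide; E+R, etoposide + rapamycin; SK, SK-MEL-28). Points are libraries and bars the mean ± SD of 3. EGR2 rises from 11.8 to 30.8 CPM on average in A375, whereas JUN with rapamycin is higher in A375 but falls in SK-MEL-28.

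Among the FOS genes, which supply the partner of JUN proteins in AP-1, the members moved in different directions in A375. FOS (ENSG00000170345.10, chr14:75278826-75282230) had 23.2, 21.6 and 21.8 CPM with etoposide and 16.7, 16.2 and 15.5 CPM with etoposide + rapamycin in A375. All 3 libraries with rapamycin were lower, and the log2 fold change was -0.46 (SE 0.083, edgeR adjusted p = 0.00128). SK-MEL-28 had 15.6, 14.8 and 18.9 CPM without and 16.1, 15.2 and 14.8 CPM with rapamycin. These overlap, with a log2 fold change of -0.10 (SE 0.107, edgeR adjusted p = 0.561). Without SK-MEL-28 Etoposide replicate 3, the highest of these libraries, this value was 0.015.

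FOSB (ENSG00000125740.15, chr19:45467995-45475179), whose short isoform is known to build up under repeated stimulation, rose in A375 from 29.8, 27.4 and 24.5 CPM to 47.9, 42.4 and 42.3 CPM. On the log2 scale the fold change was 0.69 (SE 0.0824, edgeR adjusted p = 7.47e-05). In SK-MEL-28 the libraries had 11.1, 10.7 and 11.8 CPM with etoposide and 15.3, 14.4 and 13.98 CPM with rapamycin added, and the groups did not overlap in either line. The log2 fold change in SK-MEL-28 was 0.38 (SE 0.0971, edgeR adjusted p = 0.0164), and the adjusted p was 0.0517 without Etoposide + Rapamycin replicate 1 and 0.0635 without Etoposide replicate 2. FOSB lies within ERCC1, a DNA repair gene on the other strand with 75970 counts in all against 8659 for FOSB, and the sources used here do not say whether strand was used in counting. Their annotated exons share 0 bases, and the log2 fold change of ERCC1 was 0.05 in A375 (edgeR adjusted p = 0.533), against -0.14 in SK-MEL-28 (edgeR adjusted p = 0.119).

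FOSL1 (ENSG00000175592.9, chr11:65892049-65900573) encodes FRA-1, an AP-1 protein that lacks the strong activation domain of FOS. In A375 it had 146.4, 156.9 and 151.4 CPM with etoposide and 248.5, 238.8 and 253.6 CPM with etoposide + rapamycin. In SK-MEL-28 the libraries had 63.1, 75.2 and 73.5 CPM without and 96.7, 103.8 and 114.5 CPM with rapamycin. The groups were well apart in both lines, and the log2 fold change was 0.70 in A375 (SE 0.0463, edgeR adjusted p = 7.83e-07), against 0.57 in SK-MEL-28 (SE 0.0753, edgeR adjusted p = 0.000189). The fold change of 1.48 in SK-MEL-28 lay just under the threshold of 1.5 used for calls, and leaving out SK-MEL-28 Etoposide + Rapamycin replicate 1, Etoposide replicate 2 or Etoposide replicate 3 took it over, with log2 fold changes of 0.63, 0.61 and 0.60.

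Per kb of exon FOSL1 made up most of the FOS family in every group. Its share of the sum of FOS, FOSB, FOSL1 and FOSL2 was 81.4% ± 1.36 with etoposide and 87.6% ± 0.478 with etoposide + rapamycin in A375 (SD, n = 3). In SK-MEL-28 the share was 73.4% ± 2.36 and 82.3% ± 1.79, and the ranges of the libraries did not overlap in either line. The share of FOS went from 7.07% to 3.39% in A375 and from 10.2% to 7.17% in SK-MEL-28, and the share of FOSL2 from 6.55% to 3.63% and from 12.4% to 6.65%. The summed level of the family was 98.7 ± 2.29 and 149.0 ± 4.27 CPM per kb in A375, and 50.9 ± 3.4 and 67.6 ± 4.34 CPM per kb in SK-MEL-28. FOSL2, which encodes FRA-2 and is no member of the 10, had a log2 fold change of -0.26 in A375 (SE 0.0654, edgeR adjusted p = 0.0112), against -0.50 in SK-MEL-28 (SE 0.0654, edgeR adjusted p = 0.000182).

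JUN (ENSG00000177606.9, chr1:58776845-58784048), the principal target of JNK among the AP-1 genes, moved in opposite directions in A375 and SK-MEL-28. In A375 the libraries had 127.0, 128.3 and 133.6 CPM with etoposide and 189.7, 177.2 and 196.7 CPM with etoposide + rapamycin. In SK-MEL-28 they had 55.9, 64.3 and 60.7 CPM without and 49.1, 53.3 and 52.6 CPM with rapamycin. With rapamycin all 3 libraries were above the range of the others in A375, and all 3 were below it in SK-MEL-28. The fitted log2 fold change was 0.53 in A375 (SE 0.0494, edgeR adjusted p = 1.08e-05), against -0.23 in SK-MEL-28 (SE 0.0622, edgeR adjusted p = 0.0226). In SK-MEL-28 the value stayed negative, at -0.28 to -0.18, with any 1 library left out, but the adjusted p rose above 0.05 without Etoposide + Rapamycin replicate 1 (0.0955) or replicate 3 (0.0652) and without Etoposide replicate 2 (0.0931) or replicate 3 (0.0807), and with a filter that kept every gene with a count (0.0693).

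JUNB (ENSG00000171223.6, chr19:12791486-12793315), which can restrain JUN activity and pairs with the same partners, rose in both lines. It had 133.9, 149.0 and 134.6 CPM with etoposide and 203.2, 198.9 and 213.4 CPM with etoposide + rapamycin in A375, and 90.9, 111.0 and 112.6 CPM against 137.6, 133.5 and 129.3 CPM in SK-MEL-28. No library with rapamycin fell into the range of those without. The log2 fold change was 0.56 in A375 (SE 0.0532, edgeR adjusted p = 1.34e-05), against 0.34 in SK-MEL-28 (SE 0.0742, edgeR adjusted p = 0.00595). Without A375 Etoposide replicate 2 the A375 value was 0.61, over the fold change threshold. Exons of JUNB share 259 bases, 14.2% of its exon length, with HOOK2 on the other strand, and HOOK2 had log2 fold changes of 0.25 (edgeR adjusted p = 0.059) and -0.04 (edgeR adjusted p = 0.825) in A375 and SK-MEL-28.

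The JUN family, per kb of exon, was held mostly by JUND and JUNB in all groups. JUN held 17.5% ± 0.757 of the family without and 18.7% ± 0.531 with rapamycin in A375, and 10.6% ± 0.536 without and 8.12% ± 0.276 with rapamycin in SK-MEL-28 (SD, n = 3). The share of JUNB went from 37.3% to 40.4% in A375 and from 36.5% to 41.6% in SK-MEL-28. JUND, the family member least dependent on stimulation, had a log2 fold change of 0.30 in A375 (SE 0.0554, edgeR adjusted p = 0.00164), against 0.08 in SK-MEL-28 (SE 0.0717, edgeR adjusted p = 0.47).

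**Figure D2:**
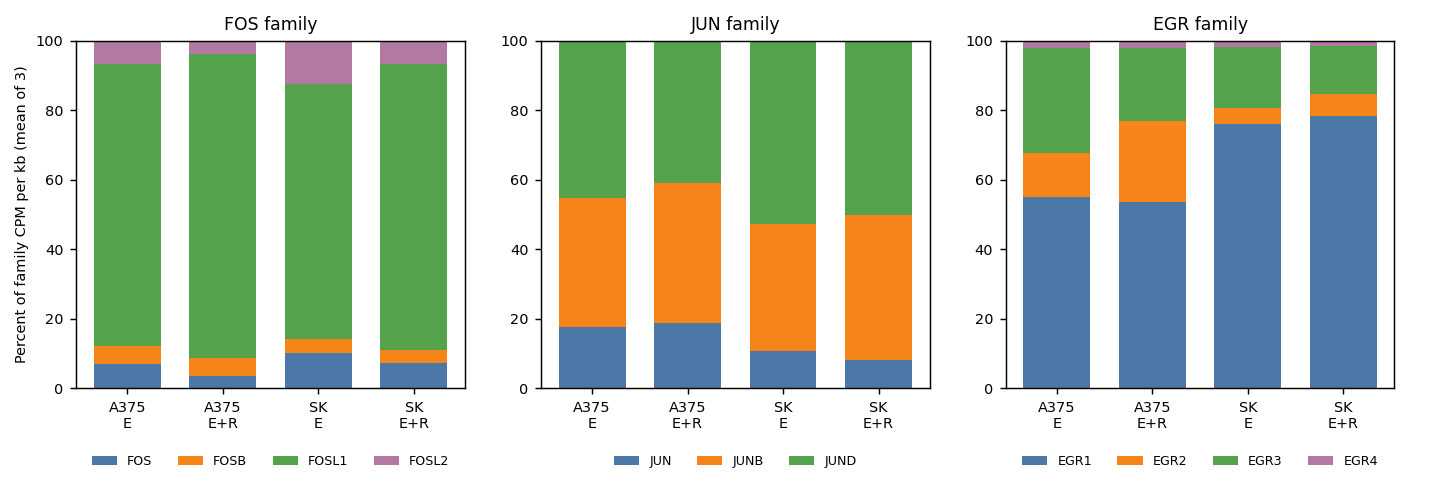
Share of each gene in the summed CPM per kb of exon of the FOS, JUN and EGR families, in percent, as the mean of 3 libraries per group (E, etoposide; E+R, etoposide + rapamycin; SK, SK-MEL-28). FOSL1 holds 73.4% to 87.6% of the FOS family, and the share of EGR2 in the EGR family is larger with rapamycin in both lines.

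IER2 (ENSG00000160888.7, chr19:13150411-13154911), a nuclear protein induced with the AP-1 genes, had 105.9, 108.7 and 100.0 CPM with etoposide and 151.9, 133.3 and 147.0 CPM with etoposide + rapamycin in A375. In SK-MEL-28 it had 78.3, 87.5 and 89.0 CPM without and 108.1, 99.0 and 105.3 CPM with rapamycin. The groups did not overlap, and the log2 fold change was 0.45 in A375 (SE 0.0556, edgeR adjusted p = 9.02e-05), against 0.29 in SK-MEL-28 (SE 0.0605, edgeR adjusted p = 0.00485).

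IER3 (ENSG00000137331.12, chr6:30743199-30744548), a stress-induced gene that acts on ERK signalling and cell survival, was the highest of the 10 genes per kb of exon in every group, with 466.4 ± 18.8 CPM per kb in A375 and 175.0 ± 15.4 CPM per kb in SK-MEL-28 under etoposide (SD, n = 3). It had 622.3, 657.9 and 608.8 CPM with etoposide and 644.2, 617.4 and 614.6 CPM with etoposide + rapamycin in A375, and 230.7, 218.8 and 259.3 CPM against 231.9, 214.1 and 212.5 CPM in SK-MEL-28. The ranges overlapped in both lines. On the log2 scale the fold change was -0.01 (SE 0.0443, edgeR adjusted p = 0.858) and -0.11 (SE 0.0657, edgeR adjusted p = 0.283), so no difference was detectable with either set of 3 libraries. IER3 overlaps IER3-AS1 and HCG20 on the other strand, of which HCG20 had 225 counts in all against 152669 for IER3, and EGR3 and IER2 overlap antisense lncRNAs in the annotation, whose reads cannot be told apart from theirs without strand.

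Counted over the 10 genes in A375, EGR2, FOSB and FOSL1 were called higher with rapamycin, which needed a fold change over 1.5 beside an adjusted p under 0.05, where 3.09% of all 18844 genes tested were called higher, and 0 were called lower, where 2.8% of all genes were. Without the fold threshold 7 of 10 were higher, against 14.3% of all genes, and FOS was lower, against 13.8%. The 2 groups did not overlap for 8 of 10 genes, against 42.5% of all genes. The median log2 fold change of the 10 genes was 0.49, beside -0.01 for all genes tested.

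In SK-MEL-28, EGR1 and EGR2 were called higher, where 1.85% of all 18897 genes tested were, and 0 were called lower, where 3.14% were. At the adjusted p alone 7 of 10 were higher, against 8.83% of all genes, and JUN was lower, against 10.1%. The groups did not overlap for 8 of 10 genes, against 35.9% of all genes. The median log2 fold change was 0.36, beside 0.01 for all genes tested. The 10 genes are not independent of each other, and the list was chosen with results of these libraries known. The shares of all genes were not matched for level. They include genes with fewer counts than any of the 10, whose lowest mean was 374.2 (EGR2), and with fewer counts a difference is harder to detect.

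**Figure D3:**
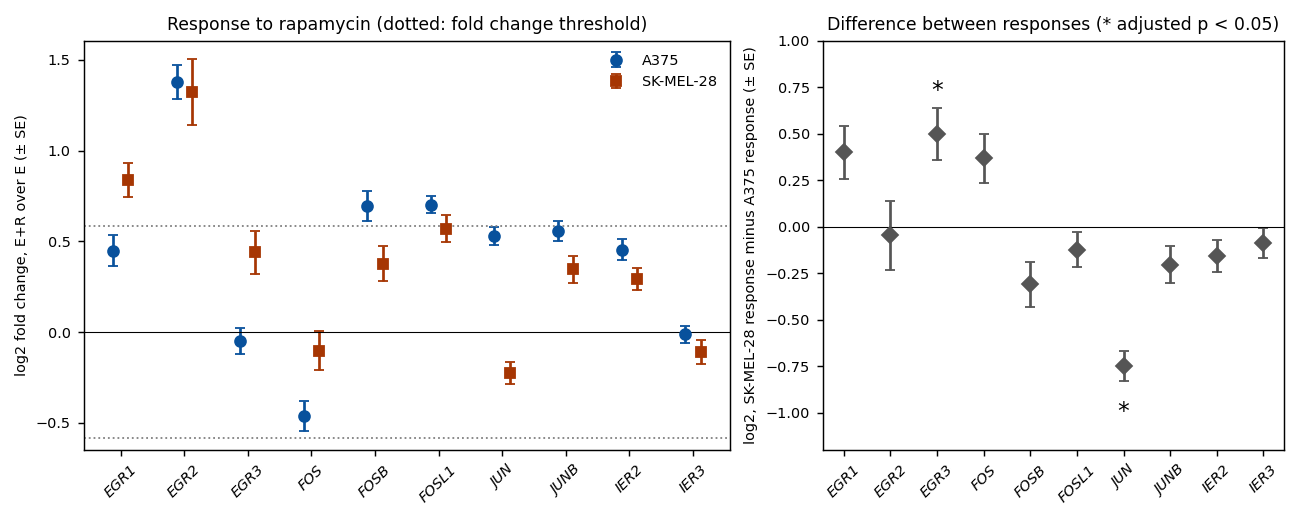
Left, log2 fold change of each gene (etoposide + rapamycin over etoposide) with its SE in A375 and SK-MEL-28, dotted lines at a fold change of 1.5 in either direction. Right, the response in SK-MEL-28 minus that in A375 with its SE, where a star marks an adjusted p under 0.05 by the quasi-likelihood test of edgeR. JUN stands lowest in the right panel at -0.75 and EGR3 highest at 0.50.

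An interaction of cell line and rapamycin, fitted to all 12 libraries, tested for unequal responses. JUN and EGR3 were called, where 5.62% of all 20101 genes tested were. The response of JUN in SK-MEL-28 was lower than that in A375 by a log2 difference of -0.75 (SE 0.0815, edgeR adjusted p = 6.35e-05), and that of EGR3 was higher by 0.50 (SE 0.138, edgeR adjusted p = 0.0447). The difference of JUN stayed between -0.80 and -0.71 with any 1 library left out, and its largest adjusted p was 0.000416. That of EGR3 kept its sign, at 0.37 to 0.58, but its adjusted p was above 0.05 in 11 of the 12 fits that each left out 1 library, at up to 0.109, and under it (0.0366) without SK-MEL-28 Etoposide replicate 3. Its adjusted p was also above 0.05 with the replicate number as a block (0.0948) and with a filter that kept every gene with a count (0.0966).
Of the 8 genes not called, EGR1 (0.40, SE 0.143) and FOS (0.37, SE 0.132) had the larger positive differences, both with an adjusted p of 0.118, and FOSB (-0.31, SE 0.12, edgeR adjusted p = 0.149) the most negative. FOS had 0.49 (edgeR adjusted p = 0.0372) without SK-MEL-28 Etoposide replicate 3, and JUNB, at -0.20 with all libraries (edgeR adjusted p = 0.256), had -0.30 (edgeR adjusted p = 0.0285) without SK-MEL-28 Etoposide replicate 1. For EGR2, which had close to equal fold changes in both lines, the difference was -0.05 (SE 0.186, edgeR adjusted p = 0.926), and this SE leaves room for a sizeable difference in either direction.

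Under etoposide alone, SK-MEL-28 had less RNA of all 10 genes than A375, with no overlap between the libraries of the lines, against 22.3% of all genes tested that lay lower in this way. With both thresholds EGR2, EGR3, FOSB, FOSL1, JUN and IER3 were called lower in SK-MEL-28, where 7.32% of all 19025 genes tested were, and 0 were called higher, where 5.7% were. Without the fold threshold 10 of 10 were lower, against 16.5% of all genes, and 0 were higher, against 15.2%. The log2 difference was -2.36 for EGR2 (SE 0.155), -1.69 for EGR3 (SE 0.111), -1.42 for IER3 (SE 0.0633), -1.29 for FOSB (SE 0.0941), and -1.11 for both JUN (SE 0.0609) and FOSL1 (SE 0.0679). It was smallest for IER2, at -0.31 (SE 0.0621, edgeR adjusted p = 0.00195). The median over the 10 genes was -1.11, beside 0.00 for all genes. The lines were cultured apart, so line and culture cannot be told apart.

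By CPM per kb of exon IER3 stood first in all 4 groups, and the order of the other genes changed between them. The order of genes within a group depends on the annotated exon lengths. After IER3 came FOSL1 and JUNB in A375, with 80.3 ± 2.78 and 76.1 ± 4.66 CPM per kb under etoposide, whose libraries overlap, and 130.9 ± 3.98 and 112.1 ± 4.07 CPM per kb with rapamycin, whose libraries do not. In SK-MEL-28 JUNB stood above FOSL1, with 57.3 ± 6.62 against 37.4 ± 3.49 CPM per kb under etoposide and 72.9 ± 2.27 against 55.6 ± 4.76 CPM per kb with rapamycin. EGR2 was the lowest of the 10 in A375 under etoposide, at 3.19 ± 0.246 CPM per kb, and stood above EGR3, FOSB and FOS with rapamycin, at 8.3 ± 0.67 CPM per kb (SD, n = 3). The libraries of EGR2 and FOSB overlapped there, as 7.76 to 9.05 and 7.62 to 8.63 CPM per kb. FOS was the lowest with rapamycin in A375, at 5.07 ± 0.184 CPM per kb. The spread between replicates, as a pooled SD of log2 CPM, was 0.0734 for JUN and 0.0795 for IER3, and 0.16 and 0.174 for EGR1 and EGR2, beside a median of 0.0976 over 12713 genes with a mean of at least 100 counts.

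Other immediate early genes and AP-1 partners were described from lists of known genes. Of 19 other immediate early genes, KLF2 was called higher in A375 and KLF2 and NR4A2 in SK-MEL-28, and at the adjusted p alone 10 were higher in A375 (14.3% of all genes) and 6 in SK-MEL-28 (8.83%), with 0 lower in either (13.8% and 10.1%). The list's median log2 fold change was 0.22 in A375, against 0.10 in SK-MEL-28. KLF2, a Krüppel-like factor known from endothelial cells and lymphocytes, had log2 fold changes of 1.09 (SE 0.144, edgeR adjusted p = 0.000156) and 1.33 (SE 0.173, edgeR adjusted p = 0.000162), and NR4A2, an orphan nuclear receptor, 0.36 (SE 0.0814, edgeR adjusted p = 0.00527) and 0.72 (SE 0.145, edgeR adjusted p = 0.00405). DUSP1, a phosphatase of MAP kinases induced with these genes, had values of 0.22 (edgeR adjusted p = 0.166) and -0.04 (edgeR adjusted p = 0.828) that did not pass.

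Of 12 other AP-1 and bZIP partners 11 were tested, and MAFF and MAFK were called higher in A375 and MAFF in SK-MEL-28, with 0 called lower. At the adjusted p alone 5 were higher and 2 lower in A375, where 14.3% and 13.8% of all genes were, and 4 were higher and 1 lower in SK-MEL-28, where 8.83% and 10.1% were. MAFF, a small MAF protein without an activation domain, had 82.3, 88.1 and 80.7 CPM with etoposide and 150.1, 149.0 and 161.9 CPM with rapamycin in A375, with a log2 fold change of 0.87 (SE 0.0526, edgeR adjusted p = 4.38e-07). Its log2 fold change in SK-MEL-28 was 0.71 (SE 0.0637, edgeR adjusted p = 8.34e-06). MAFK had values of 0.59 and 0.30, and the stress gene ATF3 0.37 (SE 0.0615, edgeR adjusted p = 0.000766) and 0.56 (SE 0.0661, edgeR adjusted p = 7.05e-05). Of the 4 EGR relatives and corepressors 0 were called in either line. NAB1, a corepressor of EGR proteins, had values of -0.20 (edgeR adjusted p = 0.054) and 0.21 (edgeR adjusted p = 0.116), and its response differed between the lines by 0.41 (edgeR adjusted p = 0.042). NAB2, itself a target of EGR1, had 0.02 and 0.06.

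**Figure D4:**
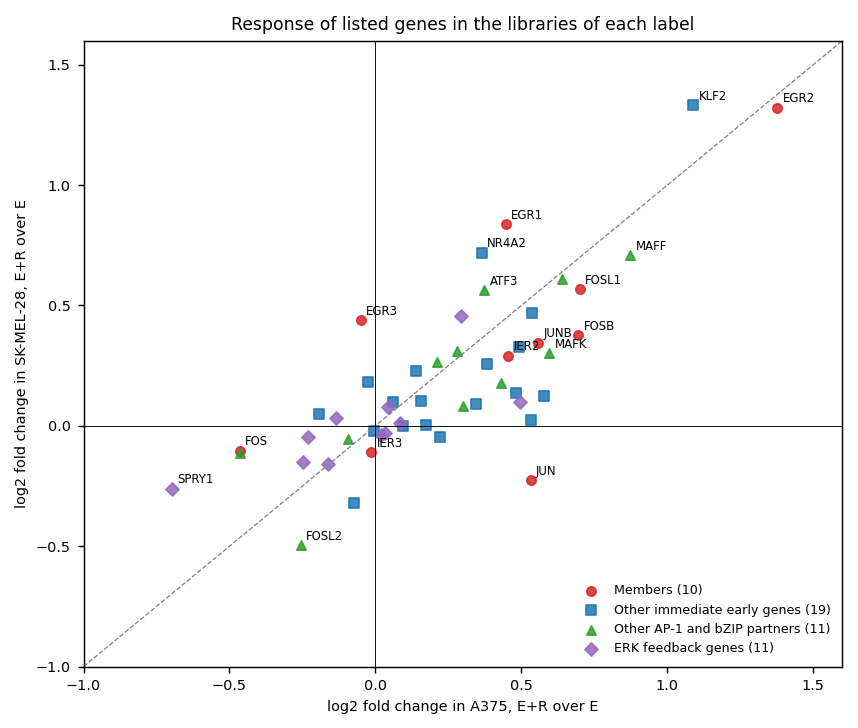
Log2 fold change in A375 against that in SK-MEL-28 (etoposide + rapamycin over etoposide) for the 10 genes and for 3 lists of related genes, the number tested in both lines in brackets, with a dashed line of equal response. KLF2 and EGR2 lie furthest to the upper right, and JUN lies in the lower right part at 0.53 and -0.23.

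The genes upstream of the immediate early response are read beside all genes tested, of which A375 had 3.09% called higher and 2.8% lower, and SK-MEL-28 1.85% and 3.14%, so that a count of 0 or 1 among 12 is no result. Of 12 MAP kinases and their activators 0 were called in either line. At the adjusted p alone 3 were higher and 2 lower in A375, where 14.3% and 13.8% of all genes were. In SK-MEL-28, 0 were higher and 1 lower, where 8.83% and 10.1% of all genes were. Of 12 SRF, ternary complex and related regulators 11 were tested, and RPS6KA5, which encodes the kinase MSK1, was called higher in SK-MEL-28 (0.67, SE 0.164, edgeR adjusted p = 0.0127) and had 0.54 in A375 (SE 0.131, edgeR adjusted p = 0.00885). SRF itself had 0.22 (edgeR adjusted p = 0.0129) in A375 and 0.16 (edgeR adjusted p = 0.0738) in SK-MEL-28. Of 11 genes of feedback on ERK signalling, SPRY1 was called lower in A375 (-0.70, SE 0.113, edgeR adjusted p = 0.000682) and had -0.26 (edgeR adjusted p = 0.0988) in SK-MEL-28. Without the fold threshold 2 of these were higher and 4 lower in A375, beside 14.3% and 13.8% of all genes. In SK-MEL-28, 1 was higher and 0 lower, beside 8.83% and 10.1% of all genes. These are RNA levels, and phosphorylation of the kinases was not measured.

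Of 12 genes known as AP-1 targets, 10 were tested in A375 and 11 in SK-MEL-28, and the called genes were all matrix metalloproteinases. MMP10 was called higher in A375, where it had 1.05, 0.478 and 0.593 CPM with etoposide and 2.35, 2.59 and 2.76 CPM with rapamycin (log2 fold change 1.85, SE 0.3, edgeR adjusted p = 0.000689). MMP3 was called lower in SK-MEL-28, from 6.28, 4.93 and 4.64 CPM to 0.969, 0.571 and 1.5 CPM (-2.37, SE 0.275, edgeR adjusted p = 6.37e-05). Counts were too low to test MMP10 in SK-MEL-28 or MMP3 in A375. The difference between the lines did not pass for MMP10 (-1.35, edgeR adjusted p = 0.412) or MMP3 (-1.63, edgeR adjusted p = 0.304). MMP1 was called lower in SK-MEL-28 too, from 9.55, 8.74 and 9.43 CPM to 5.42, 6.75 and 5.46 CPM (-0.66, SE 0.127, edgeR adjusted p = 0.00312), and had 0.31 (SE 0.168, edgeR adjusted p = 0.196) in A375. The response of MMP1 differed between the lines by -0.96 (edgeR adjusted p = 0.0166). The difference was also called for CCND1 (0.41, edgeR adjusted p = 0.000137) and CD44 (0.26, edgeR adjusted p = 0.0118), with the opposite sign. In all, 2 of the 12 targets were called higher and 1 lower for it, where 5.62% of all genes tested were called. At the adjusted p alone 4 targets were higher and 2 lower in either line, where A375 had 14.3% and 13.8% of all genes so and SK-MEL-28 8.83% and 10.1%, and the list's median was 0.23 in A375, against -0.14 in SK-MEL-28. Of 6 heat shock genes, which respond to stress of another kind, 0 were called in either line, with 1 higher and 2 lower at the adjusted p alone in A375, and 0 of either kind in SK-MEL-28.

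The genes most like EGR1, FOSL1 and JUN over the 12 libraries were found among 12703 other genes with a mean of at least 100 counts, by the root mean square difference between log2 CPM profiles centred on their own mean. For JUN these were CD82 (0.0859), TRAF1 (0.126) and ZC3H12A (0.128), where the profile of JUN itself deviated from its mean by 0.772. For FOSL1 they were PROSER2 (0.0958), SCNN1D (0.111) and ODC1 (0.127), where FOSL1 deviated by 0.672. For EGR1 they were CREB3L4 (0.124), AC037198.3 (0.13) and PRDM1 (0.135), where EGR1 deviated by 0.381. CD82 had a log2 fold change of 0.39 in A375, against -0.32 in SK-MEL-28, opposite signs as for JUN. These are descriptions of likeness, and the 12 libraries hold only 4 groups.

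Levels of markers of other cell types are given for comparison. Of the leukocyte markers, CD68, which shares its locus in the count table with another gene, had 23.2 to 35.5 CPM with etoposide and 32 to 52.2 CPM with rapamycin in A375, and 19.6 to 22.7 and 21 to 45.2 CPM in SK-MEL-28 (log2 fold changes 0.53 and 0.64, called in SK-MEL-28). The 4 fibroblast markers summed to 23.6 to 26.8 CPM without and 20.3 to 23.8 CPM with rapamycin in A375, and to 39.1 to 44 and 35.3 to 37.1 CPM in SK-MEL-28. LUM was called lower in both lines (-0.73 and -0.66) and DCN in A375 (-0.63). The 3 endothelial markers summed to at most 9.35 CPM, with PECAM1 called lower in SK-MEL-28 (-0.70), and the 4 keratinocyte markers to 48.1 to 72.3 CPM, with 0 called. Of the 9 melanoma markers 8 were tested, and without the fold threshold 4 were lower and 0 higher in A375 (13.8% and 14.3% of all genes), and 1 was lower and 0 higher in SK-MEL-28 (10.1% and 8.83%). MITF, the lineage factor of melanocytes, had log2 fold changes of -0.51 (SE 0.1, edgeR adjusted p = 0.00248) for A375 and -0.50 for SK-MEL-28 (SE 0.0967, edgeR adjusted p = 0.0032). S100B had -0.58 (SE 0.0633, edgeR adjusted p = 4.13e-05) in A375 and -0.16 (edgeR adjusted p = 0.16) in the other line. DCT, at under 1 CPM in A375, passed the filter on low counts there only through the libraries without rapamycin. Its call as lower (-1.70), which is among the 4 lower melanoma markers of A375, therefore carries no weight. The part of these genes in the results for the 10 genes was not tested.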

How the data were processed

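The authors aligned reads to GRCh38 with HISAT, estimated expression with StringTie from the Ensembl annotation, and deposited the result as raw counts, 1 column per library. How StringTie coverage became counts, and whether strand was used, is not given in the sources used here. From these deposited counts, 5 of 58312 rows named no gene (at most 0.00529% of a library) and were left out. edgeR 4.0.16 in R 4.3.3 (filterByExpr with a minimum count of 10, TMM, glmQLFit, glmQLFTest) was run on the whole table, per cell line for rapamycin, on all 12 libraries for the interaction, and on the etoposide libraries for the lines, adjusted by Benjamini-Hochberg across every gene tested. Calls needed a fold change over 1.5 beside an adjusted p under 0.05, the interaction the adjusted p alone. The SE is the log2 fold change over the square root of F. Fits were tested on simulated data. Gene positions and exon lengths came from GENCODE (GRCh38). CPM per kb used the exon union. The order of genes and their shares of a family depend on these lengths, which may differ from those of the transcripts expressed.

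The 10 genes and all lists were chosen with earlier results of these data known. Named were the 10 genes, up to 3 called genes per other list by size of change, FOSL2, JUND, ATF3, NAB1, NAB2, SRF and DUSP1, and 3 genes per likeness profile. NR4A1, MAFG and ETV5 share a locus in the table with another row. ERCC1 and HOOK2 were named for their overlap with members after their values were seen. So were CD82 for its fold changes and CCND1 and CD44 for how their responses differed between the lines. MITF, S100B and the marker genes given only by their range were named so for their levels. Alternatives were DESeq2 1.42.0, RLE size factors, library totals, filters of 1 count in any and of 10 counts in every library, a replicate block, 1 fit over 12 libraries, halved counts, the adjusted p alone, and each library left out. Intervals from counting alone are not given, because a count is not 1 read, and precision is given by the spread between libraries. The values of 1 listed marker gene are not reported here.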

Additional observations from a re-analysis of the deposited data

Results flagged for a closer look

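The response of JUN to rapamycin differed between the cell lines by a log2 value of -0.75 (SK-MEL-28 minus A375, adjusted p = 6.35e-05 for the interaction in edgeR), with every library with rapamycin above those without in A375 and below them in SK-MEL-28. Within SK-MEL-28 the decrease of JUN had an edgeR adjusted p of 0.0226. That value rose to as much as 0.0955 with 1 library left out, and to 0.0693 with a filter of 1 count. The response of EGR3 differed by 0.50 (adjusted p = 0.0447 in edgeR), with overlapping groups in A375 and separate ones in SK-MEL-28. The adjusted p for EGR3 was above 0.05 in 11 of 12 fits that each left out 1 library, with the replicate block (0.0948) and with a filter of 1 count (0.0966).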

How the results depend on the processing

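Over the alternatives the number of the 10 genes called changed by more than 1.5 times without the fold change threshold. For the interaction it also did so where EGR3 was lost, except without SK-MEL-28 Etoposide replicate 1. There JUNB was gained, so the count stayed at 2. At the adjusted p alone, 8 were called in A375, 8 in SK-MEL-28 and 10 between the lines, in place of 3, 2 and 6. For the interaction 1 gene, JUN, was called after filtering at 1 count in any library or with the replicate block, in place of 2. With 1 library left out, 3 to 4 genes were called in A375, 2 to 3 in SK-MEL-28, 6 between the lines and 1 to 3 for the interaction. Values close to 0 changed sign without 1 library. Over the libraries left out, EGR3 in A375 ranged from -0.108 to 0.008 and IER3 from -0.036 to 0.021, both positive without Etoposide replicate 2. FOS in SK-MEL-28 ranged from -0.174 to 0.015, positive without Etoposide replicate 3. The interaction of EGR2 ranged from -0.186 to 0.082, positive without A375 Etoposide + Rapamycin replicate 1, SK-MEL-28 Etoposide + Rapamycin replicate 2 or SK-MEL-28 Etoposide replicate 1. No other result reversed under any alternative run.

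Same-numbered libraries did not deviate together (correlations across genes of -0.07 to 0.04, genes not being independent), so no pairing by number was seen. With 3 libraries per group, and genes with few counts included, such correlations cannot exclude a pairing. With the replicate block, 1034 genes were called in A375 and 897 in SK-MEL-28, in place of 1109 and 943, and 620 in place of 1130 for the interaction, where DESeq2 gave 1811, the filter of 1 count 658, and fits without 1 library 594 (A375 Etoposide + Rapamycin replicate 3) to 1315. At the adjusted p alone 5295, 3582 and 6037 genes were called in A375, in SK-MEL-28 and between the lines, in place of 1109, 943 and 2477. With library totals the calls in A375 split into 469 higher and 658 lower, in place of 582 and 527. With 3 libraries per group, a small difference such as that of IER3 or of FOS in SK-MEL-28 could not be told from none.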
